A study of Mus musculus with 39 samples.

Results

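The transcripts described here are those of 41 genes that drive germ cells into meiosis and through its first prophase, chosen by name from a list, and 40 of them could be read on the array, out of 22180 genes represented by a probe set with 1 gene symbol. The 40 fall into 4 classes by role, with 3 genes of meiotic entry, 13 of chromosome axes and synapsis, 13 of recombination and 11 listed under pachytene. The pachytene class includes genes of the piRNA pathway, not all of which peak at that stage. The remaining gene, Sycp3, shares its probe set with Chpt1 and was not analysed here. RNA of whole mouse testis was hybridised to 39 Affymetrix arrays, labelled as biological replicates, and the values are log2 intensities. The 4 prKO mice at 2 weeks and 3 at 2 months carried Sf1:Cre with Prkar1a fl/fl. The 4 srKO mice at each age carried Amh:Cre with Prkar1a fl/fl, and the 4 lrKO mice at each age carried Cyp11a1:Cre with Prkar1a fl/fl. The 8 wild-type (WT) mice at each age were littermates, and their own Prkar1a or Cre alleles are not stated in the labels. Prkar1a encodes the main inhibitory subunit of protein kinase A. Sf1:Cre is known for recombination in the somatic precursors of the testis and in steroidogenic cells, Amh:Cre for Sertoli cells and Cyp11a1:Cre for steroidogenic cells including Leydig cells, so all 3 drivers belong to somatic cells.

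In the mouse testis, retinoic acid switches on Stra8 in spermatogonia, which then replicate their DNA and enter meiosis. In leptotene and zygotene, meiosis-specific cohesins build a chromosome axis, Spo11 cuts the DNA at sites marked by Prdm9, and Dmc1 pairs the broken ends with the homologous chromosome. In pachytene the homologs are joined along their length by the synaptonemal complex, crossovers mature, and a burst of transcription driven by Mybl1 includes the genes of the piRNA pathway, which silences transposons. In the first wave after birth, the most advanced cells at 2 weeks are near early pachytene, and at 2 months all stages are present together.

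Before the results, 4 facts on the arrays are needed. Prkar1a averaged 8.21 ± 0.13 in prKO, 8.50 ± 0.12 in srKO and 9.03 ± 0.05 in lrKO testes (SD, n = 4 each) against 8.98 ± 0.12 in WT testes (SD, n = 8) at 2 weeks. At 2 months it averaged 8.55 ± 0.16 in prKO (SD, n = 3), 9.08 ± 0.08 in srKO and 8.88 ± 0.02 in lrKO (SD, n = 4 each) against 8.84 ± 0.14 in WT testes (SD, n = 8). It was therefore not lower in the arrays labelled lrKO at either age, nor in the arrays labelled srKO at 2 months, where the call was higher (limma, adjusted p = 0.0302). Whether the probe set lies in the deleted part is not given in the sources used here. One protocol label speaks of adrenal tissue where every other label says testis, and the spermatid marker Prm1 averaged 11.59 ± 0.18 in WT arrays at 2 months (SD, n = 8), against 6.19 ± 0.18 at 2 weeks (SD, n = 8). WT replicate 4 at 2 weeks stood apart in the mean level of the peritubular and stromal markers, at 11.09 against 10.07 in the next WT array. In that of the epididymis markers, prKO replicate 1 at 2 months stood apart, at 7.40 against 5.15 in the next prKO array. So did prKO replicate 3 at 2 weeks, at 6.27 against 5.29 in the next prKO array of that age.

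The promoters of 5 members are shown because these genes carry the results below: Piwil1, Tdrd1 and Tdrd9 of the piRNA pathway were among the 8 members that varied most between WT arrays at 2 weeks, Hormad1 was lower in prKO than in the arrays labelled srKO at 2 months, and Syce2 was lower than WT in both. Each run is the 250 bases before the RefSeq start site in GRCm38.p6, 5′ to 3′ on the coding strand, which is the plus strand for all 5. The intervals are chr5:128735996-128736245 for Piwil1, chr19:56825959-56826208 for Tdrd1, chr12:111971309-111971558 for Tdrd9, chr3:95559427-95559676 for Hormad1 and chr8:84871861-84872110 for Syce2. Capitals mark the E-box CACGTG, the E2F6-type site GGCGGGAA and the MYBL1 core GGCAGTT.
Piwil1: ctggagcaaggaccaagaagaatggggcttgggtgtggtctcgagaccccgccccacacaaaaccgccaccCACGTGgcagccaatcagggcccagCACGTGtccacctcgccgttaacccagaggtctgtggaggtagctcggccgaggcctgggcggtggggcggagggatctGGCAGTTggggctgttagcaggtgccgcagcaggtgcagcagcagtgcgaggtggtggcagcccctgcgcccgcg
Tdrd1: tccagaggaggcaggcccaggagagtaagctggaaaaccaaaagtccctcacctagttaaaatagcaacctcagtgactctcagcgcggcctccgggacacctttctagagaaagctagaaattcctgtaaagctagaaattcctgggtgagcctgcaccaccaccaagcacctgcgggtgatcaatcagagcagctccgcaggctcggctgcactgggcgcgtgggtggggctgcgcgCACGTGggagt
Tdrd9: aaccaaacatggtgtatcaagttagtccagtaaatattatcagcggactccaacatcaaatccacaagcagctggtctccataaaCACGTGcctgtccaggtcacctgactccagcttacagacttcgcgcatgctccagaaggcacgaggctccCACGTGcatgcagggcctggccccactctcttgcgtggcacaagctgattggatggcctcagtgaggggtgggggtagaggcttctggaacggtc
Hormad1: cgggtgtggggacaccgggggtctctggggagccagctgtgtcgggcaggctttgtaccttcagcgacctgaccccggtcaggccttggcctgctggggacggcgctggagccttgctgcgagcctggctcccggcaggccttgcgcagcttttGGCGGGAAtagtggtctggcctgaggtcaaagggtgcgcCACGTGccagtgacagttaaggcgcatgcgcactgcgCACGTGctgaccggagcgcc
Syce2: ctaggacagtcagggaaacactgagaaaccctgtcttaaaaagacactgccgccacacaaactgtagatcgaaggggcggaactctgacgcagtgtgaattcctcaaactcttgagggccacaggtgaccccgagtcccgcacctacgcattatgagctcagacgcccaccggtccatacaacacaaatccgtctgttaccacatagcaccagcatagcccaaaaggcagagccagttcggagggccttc

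The reference table held a promoter for 35 of the 41 members, and Ythdc2, Piwil2, Tex11, Spo11, Mybl1 and Meiob had none. Searched on both strands in the window of 300 bases that runs 50 bases past the start, CACGTG, which reads the same on both strands, was present in 12 of 35 member promoters (34.3%), against 7.24% of 27025 promoters of all genes. GGCGGGAA was present in 5 (14.3% against 2.24%), GGCAGTT in 1, Piwil1 (2.86% against 4.14%), and the cAMP response element TGACGTCA in 0 (against 1.88%). The median GC content was 61.3% in the members' promoters and 52.7% in all. No match overlapped another, these letters were chosen after the expression values had been seen, and a match is a description of the letters alone.

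Between 2 weeks and 2 months in WT testes, the entry genes and most recombination genes were lower at 2 months and most pachytene genes higher. Of the 40 members, 16 were called higher at 2 months and 21 lower, where a call is an adjusted p under 0.05 in a limma fit over all 19007 genes tested with Benjamini-Hochberg adjustment. Over all those genes 26.7% were called higher and 55.0% lower, with a median log2 difference of -0.24, against -0.27 over the members. After renewed quantile normalization the medians were -0.13 over all genes and -0.22 over the members, and with each array centred on its median -0.12 and -0.16. By class, 0 of 3 entry genes were higher and 3 lower, with 5 and 6 of 13 for synapsis, 3 and 10 of 13 for recombination, and 8 and 2 of 11 for pachytene. In whole-testis RNA, fewer cells of a type and less RNA per cell cannot be told apart. Beside these counts, 15 of 16 spermatid markers were higher at 2 months (median 5.39), and 15 of 16 Sertoli and 11 of 11 peritubular and stromal markers were lower. Of 16 spermatogonial markers 14 were lower and 1 higher, with a median of -1.10, against -1.15 for the entry genes. Macrophage markers were lower in 8 of 11 (2 higher) and endothelial markers in 6 of 7 (1 higher). Leydig markers were higher in 5 of 7 and lower in 2. The part of these cells in the members' values was not tested.

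Stra8, the retinoic acid target that licenses entry, had log2 intensities of 6.54 to 7.28 with a median of 7.00 at 2 months, against 8.93 to 9.57 with a median of 9.42 at 2 weeks. The ages did not overlap, and Stra8 was lower at 2 months by -2.37 ± 0.15 log2 units (SE; limma, adjusted p = 3.47e-17). Ythdc2, an RNA helicase that works with Meioc to move cells from mitosis to meiosis, had 8.82 to 9.15 at 2 months against 10.04 to 10.32 at 2 weeks, again without overlap (-1.15 ± 0.07). Meioc itself was lower by only -0.25, near the median of -0.24 over all genes. Its ages overlapped, at 9.83 to 10.11 at 2 months against 9.76 to 10.47 at 2 weeks. Among the recombination genes, Tex11, an X-linked crossover factor, had 7.65 to 7.99 at 2 months against 9.84 to 10.49 at 2 weeks (-2.32 ± 0.15). Dmc1, the meiotic strand-exchange recombinase, had 8.10 to 8.43 against 9.58 to 10.21 (-1.65 ± 0.11), and Prdm9, the histone methyltransferase that marks break sites, 6.48 to 7.05 against 8.33 to 9.07 (-1.85 ± 0.12). Stra8, Ythdc2, Tex11, Dmc1 and Prdm9 had each of the 8 arrays at 2 months below every array at 2 weeks. Mnd1, a partner of Dmc1, differed by -1.48 ± 0.18, Meiob by -0.95 ± 0.19, Spata22 by -0.81 ± 0.15, Msh4 by -0.74 ± 0.15 and Msh5 by -0.73 ± 0.10. Meiob and Spata22 bind single-stranded DNA together, and Msh4 and Msh5 form a clamp that stabilises crossover intermediates. In the other direction, Psmc3ip, the partner of Mnd1, differed by 1.10 ± 0.14 and Spo11, the break-forming enzyme, by 1.06 ± 0.18.

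The synapsis class split. The cohesin subunit Rad21l had 5.97 to 6.67 in WT testes at 2 months against 7.98 to 8.57 at 2 weeks, with no overlap (-1.85 ± 0.14). The synaptonemal complex genes Tex12 (-1.06 ± 0.13) and Sycp1 (-0.97 ± 0.12) and the axis gene Hormad2 (-0.74 ± 0.15) were also lower. The central element gene Syce1 had 10.34 to 10.63 at 2 months against 8.67 to 9.35 at 2 weeks and was higher by 1.36 ± 0.08 (adjusted p = 1.62e-17, limma), as was the cohesin Rec8 by 0.82 ± 0.12. Syce2 and Smc1b were not called, at 0.14 ± 0.07 and 0.13 ± 0.08.

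Ccna1, the cyclin of late prophase, had the largest difference of the members. Its log2 intensities were 9.84 to 10.04 in WT testes at 2 months against 5.47 to 6.03 at 2 weeks, a difference of 4.28 ± 0.09 or 19.4-fold (limma, adjusted p = 5.85e-31). Piwil1, the pachytene PIWI protein, was higher by 1.92 ± 0.45, Ybx2, a binder of stored germ cell messages, by 1.80 ± 0.27, and Hspa2, a chaperone that helps dismantle the synaptonemal complex, by 1.12 ± 0.20. Mael, a piRNA pathway gene, was higher by 0.96 ± 0.08 and Tdrd1, a scaffold of the same pathway, by 0.66 ± 0.22. Mov10l1, the helicase that starts piRNA production, went the other way at -1.0 ± 0.08, with no overlap between the ages. Piwil2 was also lower, at 10.23 to 10.49 at 2 months against 10.17 to 11.40 at 2 weeks, with overlap. Of 39 other meiosis genes tested, 16 were higher and 19 lower. They were led by Pgk2 (6.69 ± 0.11), a germ cell isozyme of glycolysis, Ldhc (2.84 ± 0.39), Gtsf1 (2.03 ± 0.13), Zfp541 (1.47 ± 0.11) and Henmt1 (1.26 ± 0.12) on the higher side, and by Zcwpw1 (-1.63 ± 0.08), Rad51ap2 (-1.44 ± 0.14) and Fbxo47 (-1.34 ± 0.12) on the lower.

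**Figure D1:**
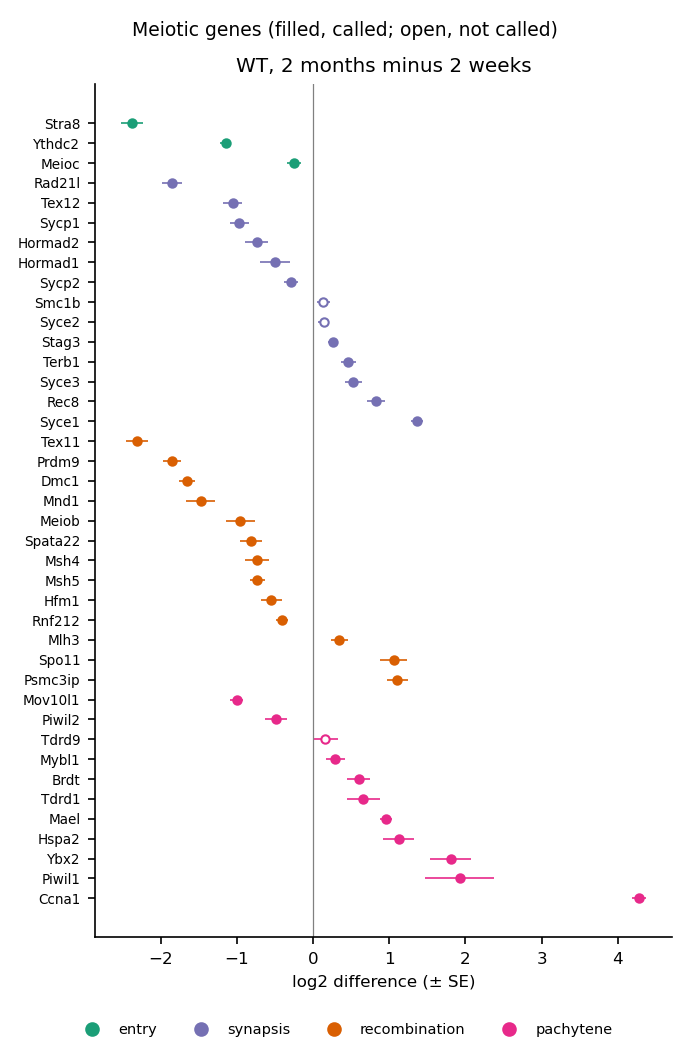
Log2 difference of each of the 40 members between WT testes at 2 months and at 2 weeks (x axis, log2 units, 2 months minus 2 weeks), with its SE, sorted within the 4 classes (colours); filled points passed the threshold. All 3 entry genes lie left of 0, and Ccna1 lies farthest right at 4.28.

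At 2 weeks the members differed widely between WT arrays. The median SD over the 8 WT arrays was 0.30 log2 units for the members at 2 weeks, against 0.17 for all genes tested. At 2 months it was 0.11, against 0.14 for all genes. The SD was larger at 2 weeks than at 2 months for 37 of 40 members (92.5%), against 60.6% of all genes, and the median ratio of the SDs was 2.47, against 1.15 for all genes. By class, the median SD at 2 weeks was 0.52 for pachytene, 0.36 for recombination, 0.26 for synapsis and 0.21 for entry genes. The pachytene class varied most and the entry class least.

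Piwil1 varied most, with an SD of 1.70. Its log2 intensities in WT replicates 1 to 8 at 2 weeks were 6.80, 9.92, 8.83, 6.71, 6.66, 10.26, 10.16 and 10.28. Replicates 1, 4 and 5 were low, replicate 3 lay between, and the other 4 were near the level of WT testes at 2 months, which was 10.44 to 10.78. In replicates 1, 4 and 5 the mean level of the spermatogonial markers was 7.66, 7.59 and 7.61, against 7.40 to 7.54 in the other 5. That of the spermatid markers was 5.82, 5.67 and 5.73, against 5.86 to 6.02. The spermatid markers gave low signals at 2 weeks, with a WT mean of 5.86 under the lowest array median of 5.96, against 10.94 at 2 months. These small differences are thus no measure of spermatids. Replicate 4 is also the array with the high stromal markers, and the part of these in the spread was not tested. The next largest SDs were those of Ybx2 (0.99), Tdrd1 (0.85), Hspa2 (0.72), Tdrd9 (0.61), Spo11 (0.60), Mnd1 (0.56) and Piwil2 (0.52). Tdrd9 is a helicase of the piRNA pathway, and Piwil2 the PIWI protein that is made before pachytene. Ybx2 was at 7.93, 8.20 and 8.36 in WT replicates 1, 4 and 5, and at 9.31 to 10.31 in the other 5. The smallest SDs were those of Ythdc2 (0.11), Syce2 (0.12), Rnf212 (0.16) and Rec8 (0.18). The first principal component of the 40 members over these 8 arrays held 90.1% of their variance, with Piwil1 weighing most. The values were centred but not scaled per gene, so this share rests mainly on the genes with the largest SDs. The sign of 35 members was that of Piwil1, and Prdm9, Stra8, Tex11, Rec8 and Rad21l had the other sign. The weights of Rad21l (-0.0012) and Rec8 (-0.0079) were near 0, as were those of Ccna1 (0.0020) and Dmc1 (0.0042) on the side of Piwil1, against 0.59 for Piwil1.

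**Figure D2:**
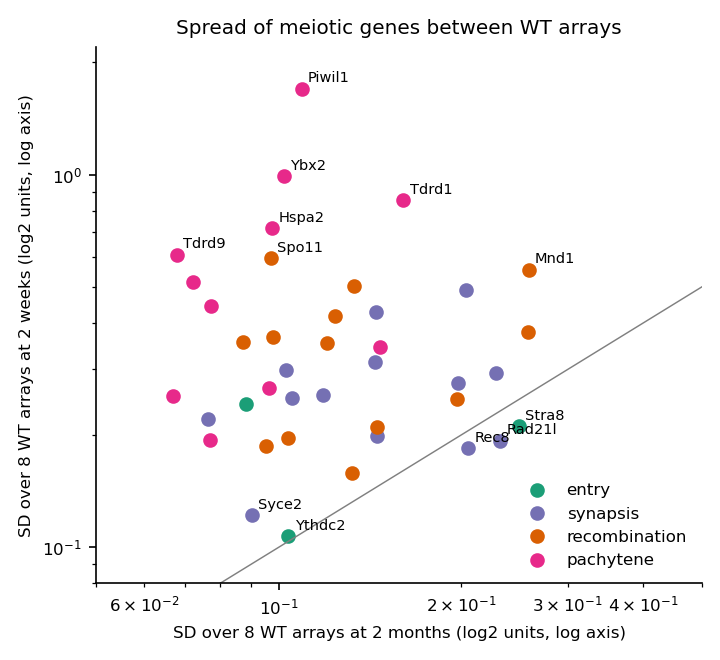
SD over 8 WT arrays at 2 weeks (y axis) against SD over 8 WT arrays at 2 months (x axis), both in log2 units on log axes, for the 40 members coloured by class; the line marks equal SDs. Of the 40 points, 37 lie above the line, and Piwil1 is highest at 1.70.

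The knockout arrays at 2 weeks also varied, to different extents. Piwil1 was at 6.88, 8.22, 8.18 and 7.60 in prKO testes, at 6.98, 6.46, 5.99 and 9.29 in srKO testes and at 9.63, 9.53, 9.65 and 10.28 in the arrays labelled lrKO. Replicate 4 of srKO was well above its 3 companions, srKO replicates 2 and 3 lay below every WT array, all prKO values fell inside the WT range, and the lrKO values lay in its upper part. The median SD over the members was 0.24 in prKO, 0.30 in srKO and 0.15 in lrKO arrays (n = 4 each). As the mean of the 11 pachytene genes relative to the WT mean, the 4 srKO arrays were at -0.56, -0.71, -0.99 and 0.25. The 4 prKO arrays were at -0.89, -0.35, -0.30 and -0.60, and the 8 WT arrays ranged between -0.78 and 0.59. The mean of the 3 entry genes lay between -0.14 and 0.12 in prKO, -0.09 and 0.19 in srKO, -0.26 and -0.06 in lrKO and -0.15 and 0.10 in WT arrays, but its members differed in sign. Relative to WT, Stra8 was at 0.26 in prKO, 0.28 in srKO and -0.46 in lrKO, and Meioc at -0.22, -0.06 and 0.12 in the same order.

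**Figure D3:**
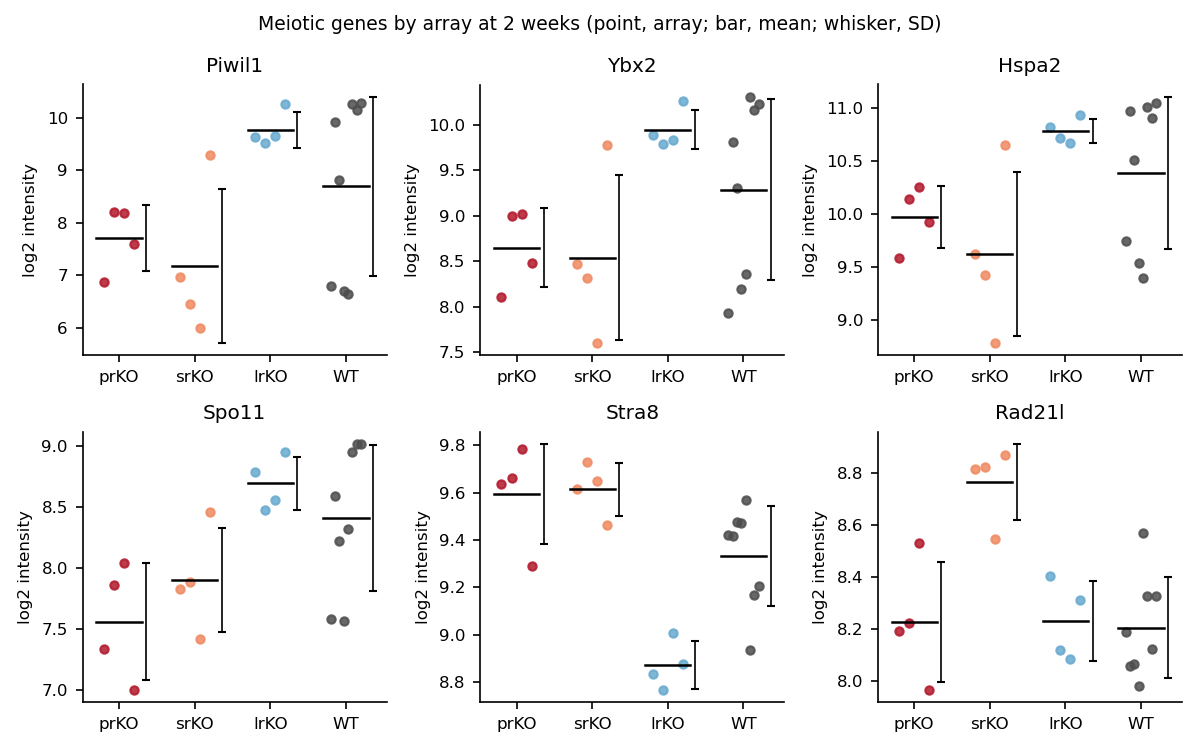
Log2 intensity (y axis) in each array at 2 weeks of the pachytene genes Piwil1, Ybx2 and Hspa2, the break enzyme Spo11, the entry gene Stra8 and the cohesin Rad21l, by genotype (x axis); points are arrays, bars means and whiskers SDs. Piwil1 in WT arrays falls at 6.66 to 6.80 in 3 arrays and at 8.83 to 10.28 in 5, and Stra8 in lrKO arrays at 8.77 to 9.01.

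In prKO testes at 2 weeks 36 of the 40 members were below WT in mean, with a median log2 difference of -0.30 against -0.01 over all genes, but most single differences were within the spread of the arrays. Of the members, 0 were called higher and 1 lower, where 7.90% of all genes were called higher and 2.59% lower (limma). At an unadjusted p under 0.05 there were 17 of 40 members, against 26.2% of all genes. The called gene was Ccna1, at 4.97, 5.16, 5.45 and 5.44 in prKO testes against 5.47 to 6.03 with a median of 5.62 in WT testes, so that no prKO array reached the WT range (-0.41 ± 0.11, adjusted p = 0.0144, limma). These are low signals, with the prKO values under the lowest array median at 2 weeks (5.96), and Ccna1 was at 9.84 to 10.04 in WT at 2 months. The larger differences were -0.98 ± 0.74 for Piwil1, -0.85 ± 0.28 for Spo11, -0.84 ± 0.35 for Tdrd1, -0.68 ± 0.26 for Tdrd9 and -0.64 ± 0.44 for Ybx2, and none of these passed. The count rested on single arrays: without WT replicate 4 it was 11 lower, without prKO replicate 1 or without prKO replicate 2 it was 0, without WT replicate 1 or prKO replicate 3 it was 2 lower, and without prKO replicate 4 it was 1 higher and 1 lower. Against WT replicates 5 to 8 alone it was 15 lower and 1 higher. Over all genes the calls rose too, to 3119 without WT replicate 4 and 4802 against WT replicates 5 to 8 alone. Of 7 Leydig cell markers, 5 were higher in prKO, and their mean level was 10.03 to 10.44 in prKO arrays against 8.21 to 9.18 in WT arrays. Stromal (5 of 11), macrophage (5 of 11) and endothelial (3 of 7) markers were also higher, and the part of these cells in the members' values was not tested. Of the 39 other meiosis genes, 0 were higher and 3 lower: Asz1 (-0.68 ± 0.18), 4930447C04Rik (-0.53 ± 0.13) and Topbp1 (-0.25 ± 0.07).

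In srKO testes at 2 weeks, Rad21l was the member that passed. It was at 8.82, 8.82, 8.55 and 8.87 in srKO testes against 7.98 to 8.57 with a median of 8.16 in WT testes, and the ranges touched at their edge (0.56 ± 0.11, adjusted p = 0.0197, limma). Of the members 1 was called higher and 0 lower, where 0.784% of all genes were called higher and 0.0894% lower. At an unadjusted p under 0.05 there were 11 of 40 members, against 15.0% of all genes. Over the members 13 differences were positive and 27 negative. Tex11 differed by 0.34, Stra8 by 0.28 and Dmc1 by 0.26, none past the threshold. Piwil1 differed by -1.52 ± 0.74, Hspa2 by -0.77 ± 0.33, Meiob by -0.76 ± 0.25, Ybx2 by -0.75 ± 0.44 and Brdt, a testis bromodomain protein, by -0.70 ± 0.24, and these did not pass either. Without srKO replicate 4, whose pachytene genes were high, 5 passed, with Rad21l and Tex11 higher and Brdt, Meiob and Mlh3 lower. Without srKO replicate 1 or srKO replicate 2 the count was 0, and without WT replicate 5 it was 3. Over all genes the calls were 362 without srKO replicate 4 and 318 without WT replicate 5. They were 33 without srKO replicate 1 and 38 without srKO replicate 2. Of the 16 spermatogonial markers 3 were higher and 0 lower, with a median log2 difference of 0.15, 11 positive and 5 negative. The largest positive difference was that of Kit, a receptor of differentiating spermatogonia. It averaged 9.83 ± 0.13 in srKO (SD, n = 4) against 9.47 ± 0.10 in WT arrays (SD, n = 8). Gfra1 averaged 7.05 ± 0.31 in srKO (SD, n = 4) against 7.06 ± 0.43 in WT arrays (SD, n = 8). Of the 39 other meiosis genes 0 were called, with 11 at an unadjusted p under 0.05.

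In the arrays labelled lrKO at 2 weeks no member was called (limma), where 0.100% of all genes were called in either direction. At an unadjusted p under 0.05 there were 2 of 40 members, against 9.02% of all genes. These were Stra8, at 8.83, 8.77, 9.01 and 8.87 in lrKO arrays against 8.93 to 9.57 with a median of 9.42 in WT arrays (-0.46 ± 0.11, adjusted p = 0.113), and Rec8 (-0.41 ± 0.11, adjusted p = 0.224). In Stra8, 3 of the 4 lrKO arrays were below every WT array. Piwil1 (1.07 ± 0.74), Ybx2 (0.66 ± 0.44), Tdrd1 (0.51 ± 0.35) and Meiob (0.47 ± 0.25) had positive differences, none past the threshold. Without WT replicate 6, 1 member was called lower, where 19 of all genes were called. Of the other meiosis genes 0 were called, with 3 at an unadjusted p under 0.05.

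Between the knockouts at 2 weeks, which share no arrays, 6 members were lower in prKO than in srKO testes and 0 higher (4.85% and 6.90% of all genes, limma). Rad21l was at 8.19, 8.22, 8.53 and 7.97 in prKO against 8.82, 8.82, 8.55 and 8.87 in srKO testes, with every prKO array below every srKO array (-0.54 ± 0.13, adjusted p = 0.00935). The cohesin Smc1b (-0.54 ± 0.14), Dmc1 (-0.43 ± 0.13), Ccna1 (-0.43 ± 0.12), Tex11 (-0.42 ± 0.11) and Syce2 (-0.34 ± 0.10) were the others. Ccna1 gave low signals in both, with 5.53 to 5.77 in srKO testes. Leaving out prKO replicate 3 kept the count at 6, but leaving out prKO replicate 1 gave 1, srKO replicate 4 gave 2, and any other array of these groups gave 3. Over all genes these fits gave 1415 to 1858 calls. Leydig markers (6 of 7), stromal markers (6 of 11) and macrophage markers (7 of 11) were higher in prKO and 6 of 16 spermatogonial markers lower. The other meiosis genes called were 4930447C04Rik (-0.73 ± 0.15), Tex15 (-0.41 ± 0.10), Prr19 (-0.38 ± 0.09), Zcwpw1 (-0.31 ± 0.09) and Brca2 (-0.25 ± 0.07), all lower in prKO.

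**Figure D4:**
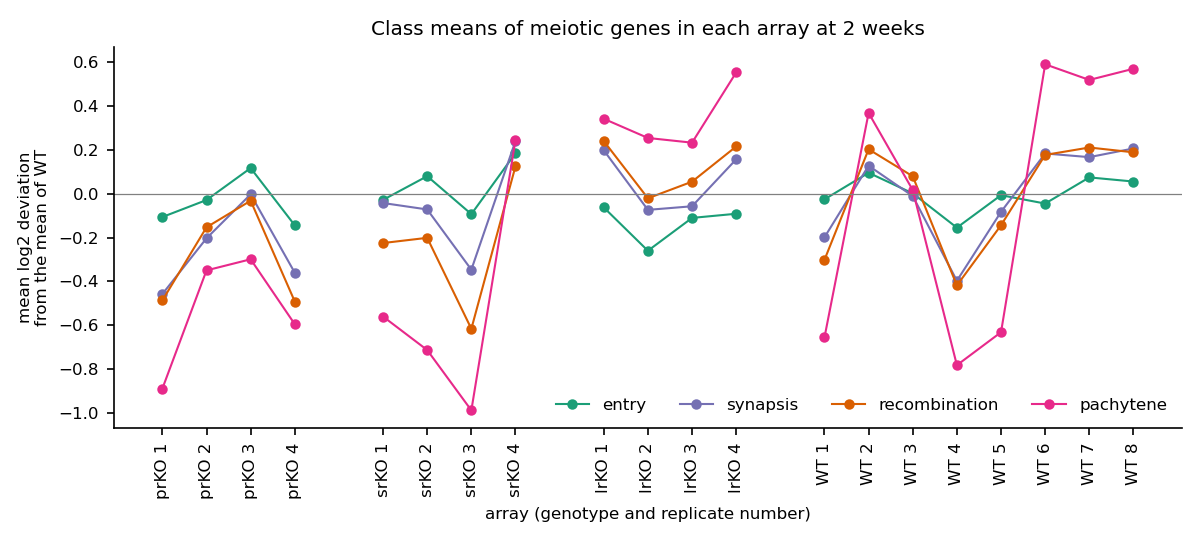
Mean log2 deviation of the genes of each class from the mean of the 8 WT arrays (y axis, log2 units) in each array at 2 weeks (x axis, genotype and replicate number); colours are classes and lines join arrays of 1 genotype only to guide the eye. The pachytene line falls to -0.99 in srKO replicate 3 and lies at 0.25 in srKO replicate 4, and the entry line, a mean of 3 genes of unlike sign, lies between -0.26 and 0.19 in all arrays.

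At 2 months all 40 members were lower in mean in prKO than in WT testes, with a median log2 difference of -0.40 against 0.02 over all genes, and 29 were called lower and 0 higher. Over all genes 22.4% were called lower and 26.0% higher (limma). By class the lower calls were 2 of 3 for entry, 11 of 13 for synapsis, 10 of 13 for recombination and 6 of 11 for pachytene genes, with median differences of -0.28, -0.45, -0.47 and -0.24. Leaving out any 1 array gave 21 to 32 lower and 0 higher, with 7359 to 9288 of all genes called. For Mnd1, which was not called, the prKO mean of 4.59 lay under the 4.62 used as the limit for dim probe sets.

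Among the synapsis genes, Syce2, a central element protein, was at 9.70, 9.36 and 9.78 in prKO testes against 10.37 to 10.61 with a median of 10.48 in WT testes. No prKO array came near the WT range (-0.86 ± 0.11, limma, adjusted p = 2.15e-06). Rad21l was at 5.36, 4.94 and 5.80 against 5.97 to 6.67 with a median of 6.38 (-0.98 ± 0.22), again without overlap. Hormad1, an axis protein that oversees synapsis, differed by -0.73 ± 0.21, Rec8 by -0.72 ± 0.19 and Tex12 by -0.60 ± 0.16, each with 2 of 3 prKO arrays below all WT arrays. Hormad1 was at -0.29 without prKO replicate 3 and did not pass, and at -1.10 without prKO replicate 1. Hormad2 (-0.56 ± 0.13), Terb1, which ties telomeres to the nuclear envelope (-0.45 ± 0.11), Syce3 (-0.44 ± 0.11), Sycp1 (-0.41 ± 0.16) and Smc1b (-0.39 ± 0.08) were also lower. Sycp1 was at -0.19 without prKO replicate 2 and did not pass, and at -0.68 without prKO replicate 1.

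Among the recombination genes, Tex11 was at 6.62, 5.95 and 7.17 in prKO testes against 7.65 to 7.99 with a median of 7.76 in WT testes, the largest difference of the members in this comparison (-1.19 ± 0.24, limma, adjusted p = 0.000479). Dmc1 was at 7.49, 7.18 and 7.48 against 8.10 to 8.43 with a median of 8.24 (-0.85 ± 0.16). Neither gene overlapped between the groups. Spata22 (-0.60 ± 0.14), the crossover helicase Hfm1 (-0.52 ± 0.12), Msh4 (-0.51 ± 0.14), Msh5 (-0.49 ± 0.11), Prdm9 (-0.47 ± 0.16), Spo11 (-0.46 ± 0.10), Psmc3ip (-0.35 ± 0.08) and the crossover regulator Rnf212 (-0.34 ± 0.10) followed. Spo11 was at -0.28 without prKO replicate 3, and Rnf212 at -0.22 without prKO replicate 2, where it did not pass.

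Among the pachytene genes, Tdrd1 was at 9.22, 9.33 and 8.98 in prKO testes against 9.46 to 9.92 with a median of 9.73 in WT testes (-0.53 ± 0.10). Ybx2 was at 10.66, 10.74 and 10.47 against 10.88 to 11.23 with a median of 11.12 (-0.47 ± 0.07, limma, adjusted p = 3.81e-05). Both were below every WT array in all 3 prKO arrays. Brdt (-0.29 ± 0.08) and Mybl1, the pachytene transcription factor (-0.28 ± 0.10), were lower too, and Piwil1 did not pass (-0.23 ± 0.10). Without prKO replicate 3 neither Brdt (-0.14) nor Mybl1 (-0.18) passed. Of the entry genes, Ythdc2 was at 8.76, 8.32 and 8.61 against 8.82 to 9.15 with a median of 9.07 (-0.49 ± 0.11), whereas Stra8, at 6.71, 6.64 and 7.40 against 6.54 to 7.28, had 2 arrays inside the WT range and 1 above it (-0.04 ± 0.24).

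In the same prKO arrays 15 of 16 spermatid markers were lower and 1 higher, with a mean level of 9.67 to 10.25 against 10.81 to 11.03 in WT arrays. Higher markers were 11 of 16 Sertoli (2 lower), 9 of 11 stromal, 9 of 11 macrophage, 7 of 7 endothelial and 4 of 7 Leydig (1 lower), and of 16 spermatogonial markers 3 were higher and 6 lower. The stromal mean level was 8.85 to 9.59 against 7.55 to 7.88 in WT arrays. Their part in the members' lower values was not tested. Of the 39 other meiosis genes 29 were lower and 0 higher, led by Gtsf1 (-0.82 ± 0.08), Meikin (-0.79 ± 0.13), Fbxo47 (-0.73 ± 0.13), Pgk2 (-0.72 ± 0.09), Majin (-0.66 ± 0.09), Terb2 (-0.66 ± 0.13), Tex15 (-0.65 ± 0.16) and Asz1 (-0.61 ± 0.10).

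In the arrays labelled srKO at 2 months 5 of 40 members were called higher and 4 lower, close to the shares over all genes, of which 14.7% were called higher and 10.8% lower (limma). The median over the 40 was 0.07, and 0.0027 without srKO replicate 1. With each array centred on its median, 2 were higher and 5 lower. These arrays share their WT references with those of prKO. The higher genes were Tdrd1 (0.29 ± 0.09), Piwil1 (0.26 ± 0.09), Piwil2 (0.25 ± 0.08), Sycp2, an axis protein (0.23 ± 0.08) and Tdrd9 (0.22 ± 0.06). Mael and Mov10l1 of the piRNA pathway were not called. Tdrd1 was at 10.17, 10.00, 10.03 and 9.78 in srKO arrays against 9.46 to 9.92 with a median of 9.73 in WT arrays, and Piwil1 at 11.00, 11.03, 10.83 and 10.67 against 10.44 to 10.78 with a median of 10.64. In both genes 3 of 4 srKO arrays lay above all WT arrays, by small margins. All 5 higher calls needed srKO replicate 1: without it 0 members were higher and 8 lower. Without srKO replicate 2 the counts were 3 higher and 2 lower, and without srKO replicate 3 they were 2 higher and 3 lower. Over all genes the calls were 4077, 3514 and 4638 without srKO replicates 1, 2 and 3 in turn.

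The lower genes were Tex11 (-0.76 ± 0.22), Syce2 (-0.75 ± 0.10), Syce3 (-0.43 ± 0.10) and Psmc3ip (-0.21 ± 0.07). Syce2 was at 9.98, 9.88, 9.38 and 9.64 in srKO arrays against 10.37 to 10.61 with a median of 10.48 in WT arrays, without overlap (limma, adjusted p = 8.8e-06). Tex11 was at 8.03, 6.92, 6.30 and 6.81 against 7.65 to 7.99 with a median of 7.76, so that replicate 1 was above all WT arrays and the other 3 below them. Replicate 1 was also the highest srKO array for Stra8, at 7.74 against 6.77, 6.05 and 6.49 in the other 3, and for Dmc1, at 8.63 against 7.56, 7.58 and 8.09. Without it Stra8, Dmc1, Rad21l, Prdm9 and Msh5 passed as lower as well, and Psmc3ip no longer did. Of 16 spermatid markers 13 were lower in the srKO arrays, and macrophage (9 of 11) and stromal (6 of 11) markers higher, with a macrophage mean level of 7.34 to 7.94 against 6.57 to 6.86 in WT arrays, and their part was not tested. Of the other meiosis genes Pld6 (0.38 ± 0.11), Atr (0.27 ± 0.07) and Tdrd12 (0.25 ± 0.07) were higher, and Pgk2 (-0.62 ± 0.08), 4930432K21Rik (-0.30 ± 0.11), Gtsf1 (-0.27 ± 0.07) and Trip13 (-0.21 ± 0.07) lower. Pld6 and Tdrd12 act in the piRNA pathway.

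Where the promoter table held a sequence and a probe set was tested, the 11 members with an E-box had a median difference of 0.16 in the arrays labelled srKO, with 3 called higher and 0 lower, and the 23 without had 0.00, with 1 higher and 3 lower. In prKO testes at 2 months the medians were -0.29 with and -0.45 without an E-box. The split was made after these values were known and is given without a test.

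In the arrays labelled lrKO at 2 months 0 members were called (limma), where 0.184% of all genes were called in either direction. At an unadjusted p under 0.05 there were 4 of 40 members, against 8.28% of all genes. The median over the members was -0.09. Tex12 differed by -0.38 ± 0.14, Rad21l by -0.27 ± 0.20, Psmc3ip by -0.21 ± 0.07, Mlh3, an endonuclease subunit of crossover resolution, by -0.20 ± 0.08, Sycp1 by -0.17 ± 0.15 and Spo11 by -0.17 ± 0.09, with adjusted p of 0.408 or more (limma). Syce2 was at 10.59, 10.57, 10.56 and 10.49 in lrKO arrays, within the WT range of 10.37 to 10.61. Of the other meiosis genes 0 were called, with 3 at an unadjusted p under 0.05, and of the marker lists 2 of 7 Leydig genes were lower.

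**Figure D5:**
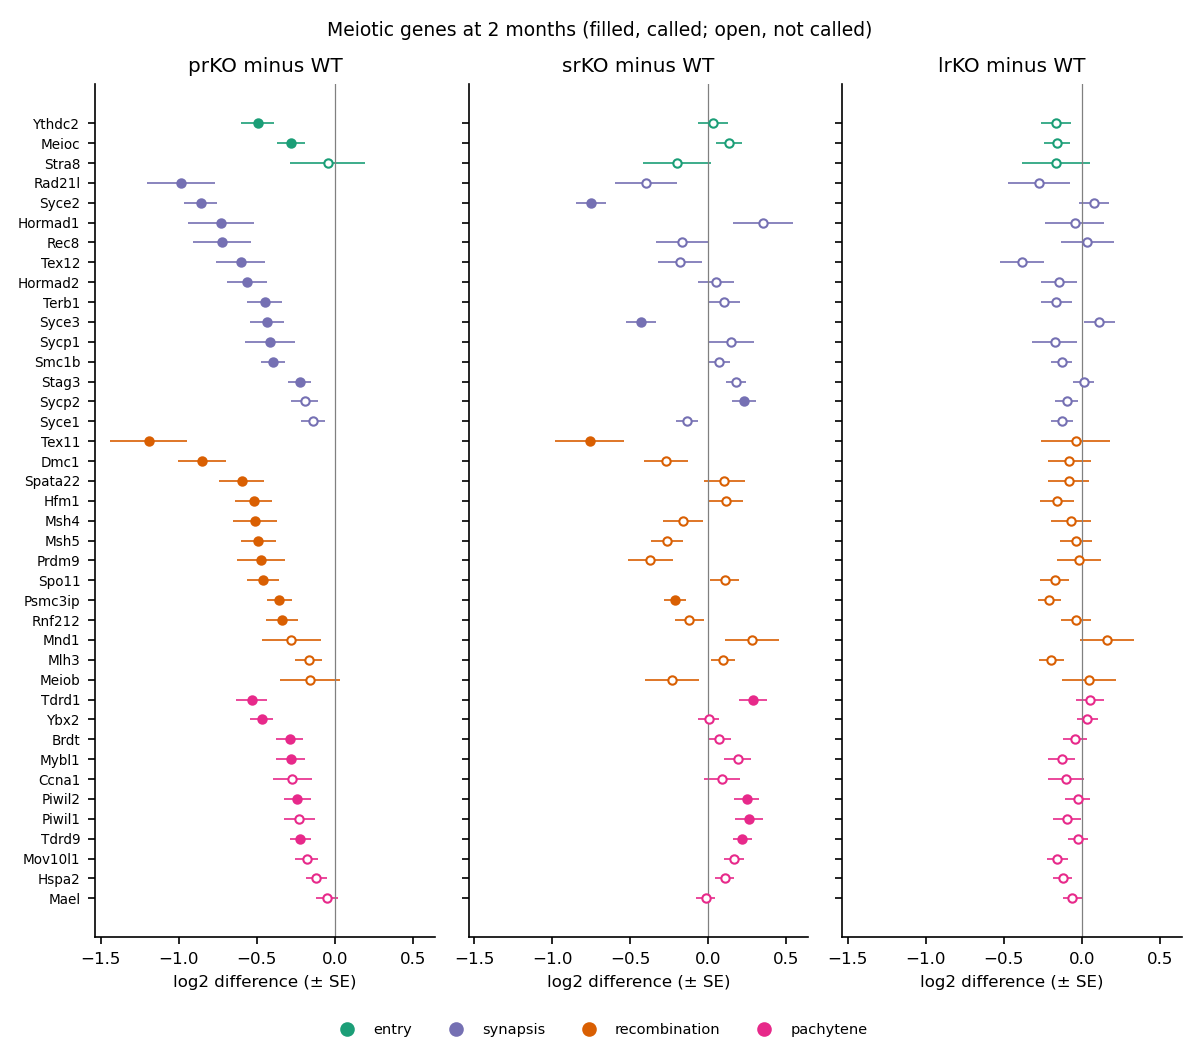
Log2 difference of each of the 40 members at 2 months in prKO (left), srKO (middle) and lrKO (right) arrays minus WT arrays (x axis, log2 units, with SE; all panels on 1 scale), sorted within classes by the prKO value; filled points passed the threshold. All 40 prKO points lie left of 0, and in the srKO panel the filled pachytene points lie right of 0 while Syce2 lies at -0.75.

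Set directly against the arrays labelled srKO at 2 months, 22 members were lower in prKO testes and 0 higher (12.1% and 13.4% of all genes, limma), with a median of -0.43. Hormad1 was at 9.06, 8.45 and 7.43 in prKO testes against 9.49, 9.37, 9.15 and 9.56 in srKO arrays, with no overlap and a wide spread in prKO (-1.08 ± 0.24, adjusted p = 0.00322, limma). Without prKO replicate 3 it was at -0.64. Tdrd1 was at 9.22, 9.33 and 8.98 against 10.17, 10.00, 10.03 and 9.78 (-0.82 ± 0.11, adjusted p = 0.00012, limma). The piRNA genes Piwil1 (-0.49 ± 0.11), Piwil2 (-0.49 ± 0.10), Tdrd9 (-0.44 ± 0.08) and Mov10l1 (-0.34 ± 0.08) were lower, as were Ybx2 (-0.47 ± 0.08), Mybl1 (-0.47 ± 0.11), Brdt (-0.36 ± 0.10) and Hspa2 (-0.22 ± 0.08). Of the recombination genes Spata22 (-0.70 ± 0.16), Hfm1 (-0.63 ± 0.13), Dmc1 (-0.58 ± 0.18) and Spo11 (-0.57 ± 0.12) were lower. Of the synapsis genes Hormad2 (-0.61 ± 0.14), Sycp1 (-0.56 ± 0.18), Terb1 (-0.55 ± 0.13), Smc1b (-0.47 ± 0.09), Sycp2 (-0.42 ± 0.09) and Stag3, a cohesin subunit (-0.40 ± 0.08), were lower, and so were the entry genes Ythdc2 (-0.52 ± 0.12) and Meioc (-0.41 ± 0.10). Without srKO replicate 1 Dmc1 was at -0.36, and without prKO replicate 2 Sycp1 (-0.34) and without prKO replicate 3 Brdt (-0.21) did not pass. Syce2 (-0.11 ± 0.12), Syce3 (0.00 ± 0.12), Tex11 (-0.43 ± 0.28) and Psmc3ip, which were lower than WT in both, did not pass here. Spermatid markers differed in 2 of 16, 1 each way, and stromal markers were higher in prKO in 9 of 11. Of the 39 other meiosis genes 24 were lower and 0 higher, led by Meikin (-0.86 ± 0.14), Pld6 (-0.83 ± 0.14), Asz1 (-0.77 ± 0.11) and Ccnb1ip1 (-0.72 ± 0.12).

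The change between ages was compared with that of WT testes by an interaction term over all 8 groups, in which the lines share the WT arrays of both ages. In prKO 6 members had a lower change than WT and 0 a higher one (12.3% and 15.8% of all genes, limma): Tex11 (-1.11 ± 0.27), Rad21l (-1.01 ± 0.25), Rec8 (-0.95 ± 0.22), Prdm9 (-0.70 ± 0.22), Syce2 (-0.70 ± 0.13) and Dmc1 (-0.68 ± 0.20). Rec8 averaged 7.81 at 2 months and 7.93 at 2 weeks in prKO testes, against 8.53 and 7.71 in WT testes, so the increase with age seen in WT was not present in the prKO mean. The prKO arrays differed, at 8.31, 7.51 and 7.62 at 2 months against 7.80 to 8.01 at 2 weeks. Replicate 1 at 2 months was above every prKO array at 2 weeks and inside the WT range at 2 months of 8.19 to 8.84. For Syce2 the prKO means were 9.61 at 2 months and 10.17 at 2 weeks, against 10.47 and 10.33 in WT testes. In the arrays labelled srKO 5 members had a lower change, Tex11 (-1.10 ± 0.25), Rad21l (-0.96 ± 0.24), Syce2 (-0.92 ± 0.13), Prdm9 (-0.61 ± 0.21) and Dmc1 (-0.53 ± 0.19). A higher change was called for 4, Brdt (0.77 ± 0.27), Mlh3 (0.67 ± 0.19), Sycp2 (0.49 ± 0.17) and Mov10l1 (0.42 ± 0.15), where 8.76% of all genes were called lower and 8.49% higher. With each array centred on its median, 1 was higher and 5 lower. The srKO count of 9 fell to 4 without srKO replicate 1 or srKO replicate 2 at 2 weeks, WT replicate 7 at 2 weeks or WT replicate 1 at 2 months. It was 5 without WT replicate 2 or WT replicate 6 at 2 weeks or srKO replicate 2 at 2 months. Over all genes these fits gave 2447 to 3204 calls. In the arrays labelled lrKO 0 members passed (0.100% of all genes called in either direction), with 2 of 40 at an unadjusted p under 0.05, against 6.96% of all genes. The largest differences were those of Piwil1 (-1.16 ± 0.78), Ybx2 (-0.62 ± 0.47), Hspa2 (-0.52 ± 0.36), Tdrd1 (-0.46 ± 0.37), Spo11 (-0.46 ± 0.30) and Rec8 (0.44 ± 0.21). Of the other meiosis genes, 6 had a lower change in prKO, Mei1 (-0.62 ± 0.17), Tex15 (-0.58 ± 0.18), Iho1 (-0.54 ± 0.13), Shoc1 (-0.45 ± 0.16), Trip13 (-0.37 ± 0.10) and Eif4g3 (-0.30 ± 0.10). In srKO 6 had a lower change, Tex15 (-0.61 ± 0.17), Mei1 (-0.56 ± 0.16), Iho1 (-0.41 ± 0.12), Rec114 (-0.37 ± 0.13), Mei4 (-0.34 ± 0.11) and Trip13 (-0.31 ± 0.10), and none a higher one in either line. Mei1, Iho1, Rec114 and Mei4 belong to the machinery that forms DNA breaks with Spo11.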

How the data were processed

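Whole-testis RNA of 39 mice in 8 groups was measured on Affymetrix arrays. The authors deposited 1 table of log2 intensities, made with RMA per the submitters' processing notes. The RMA version and the annotation build are not given here. Of 41345 probe sets, 23521 carry 1 gene symbol, 1814 several and 16010 none, and only the first kind was used, taking the probe set with the highest mean where a gene had several. Each of the 40 measured members had 1. A gene was tested when at least 1 group mean was above 4.62, the value below which 25% of the table lies; 19007 genes passed, among them all 40 members. Arrays give no read depth, so their number limits the precision.

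Groups came from the sample titles. One linear model per age with the 4 genotypes, and one with all 8 groups for comparisons between ages, were fitted in R 4.3.3 by lmFit and eBayes of limma 3.58.1. The two-sided p-values were adjusted by Benjamini-Hochberg across the whole set of tested genes, and a call needed an adjusted p under 0.05. Dispersion was described by the SD over arrays, and the script was tested on simulated data. Alternatives were other filters, probe set averaging, renewed normalization, array weights, the replicate number as a block, WT replicates 1 to 4 or 5 to 8 alone, other sets of groups in the fit and leaving out each array. Members and lists were chosen with earlier results of these data known. Named were all called members up to 25 in the order of absolute log2 difference, up to 6 of the largest differences where fewer than 6 passed, the 8 largest and 4 smallest SDs at 2 weeks, and up to 8 called genes of the list of other meiosis genes (46 listed, 39 tested). Promoters are RefSeq's, matched by symbol, and the motifs were chosen after values were seen.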

Additional observations from a re-analysis of the deposited data

Results flagged for a closer look

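A single array was flagged in 14 of 280 sets of values looked at (5%), where its gap to the nearest array was large relative to the group's range. The gap itself could be small, as for Syce2 in srKO at 2 weeks, at 10.52 against 10.50 in the nearest array. Chance gives about 1 in 20, but the sets are genes on the same arrays and are not independent. Replicate 4 of srKO at 2 weeks was the highest of its group for Syce2 (10.52), Psmc3ip (7.47), Mlh3 (8.43) and Mael (11.24), and replicate 3 the lowest for Rad21l (8.55). Replicate 4 of lrKO at 2 weeks was the highest for Piwil1 (10.28) and Piwil2 (11.35), replicate 1 for Syce2 (10.47), and replicate 2 the lowest for Ythdc2 (9.97). Replicate 3 of prKO at 2 weeks was the highest for Sycp1 (11.21). At 2 months, replicate 1 of srKO was the highest for Ythdc2 (9.43), replicate 1 of lrKO the lowest for Smc1b (11.00), WT replicate 6 the lowest for Ythdc2 (8.82) and WT replicate 4 the highest for Syce3 (9.63). All are log2 intensities.

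The change between ages differed from that of WT by an interaction term (limma, adjusted p under 0.05) for 6 members in prKO and 9 in the arrays labelled srKO. Over all genes 15.8% had a higher and 12.3% a lower change in prKO, and 8.49% and 8.76% in srKO. The log2 differences in prKO were -0.95 for Rec8, -0.68 for Dmc1, -0.70 for Prdm9, -1.01 for Rad21l, -0.70 for Syce2 and -1.11 for Tex11. In srKO they were 0.67 for Mlh3, 0.42 for Mov10l1, -0.53 for Dmc1, -0.61 for Prdm9, -0.96 for Rad21l, 0.49 for Sycp2, 0.77 for Brdt, -0.92 for Syce2 and -1.10 for Tex11. Both lines share the WT arrays.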

How the results depend on the processing

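Counts of called members at 2 weeks depended on the settings, and the cause was not tested. The counts over all genes tested moved with the settings too. The prKO count of 1 was 2 with the stricter filter or renewed quantile normalization, 16 with array weights or WT replicates 5 to 8 alone, 8 with all 8 groups in one fit, and 0 with WT replicates 1 to 4 alone or only the groups compared. The srKO count of 1 was 18 with array weights (15 lower), 3 with WT replicates 1 to 4 alone, 2 with all 8 groups in one fit (both lower) and 0 with WT replicates 5 to 8 alone or only the groups compared. The lrKO count of 0 was 3 with WT replicates 1 to 4 alone. Over all genes the prKO calls were 1501 higher and 493 lower in the main fit. They were 3834 with array weights, 4802 with WT replicates 5 to 8 alone and 2375 with all 8 groups. They were 723 with WT replicates 1 to 4 alone and 1241 with only the groups compared. The srKO calls, 149 higher and 17 lower, were 2234, 92, 265, 875 and 39 in the same order. The lrKO calls were 942 with WT replicates 1 to 4 alone. At 2 months the srKO count of 9 was 2 with WT replicates 5 to 8 alone and 3 with all 8 groups in one fit. The count of 22 between prKO and srKO was 14 in the fit of all 8 groups and 4 where no other group entered it. Over all genes the srKO calls, 2785 higher and 2052 lower in the main fit, were 3645 and 5181 in these settings. Those between prKO and srKO, 2556 higher and 2304 lower, were 4880 and 1083. The count of 9 for the srKO change between ages was 25 with array weights and 4 with WT replicates 1 to 4 alone or only the groups compared. Over all genes that change had 1613 higher and 1665 lower in the main fit. It had 4975, 2920 and 2964 calls in these 3 settings. Leaving out each array gave 0 to 11 for prKO, 0 to 5 for srKO, 0 to 1 for lrKO and 1 to 6 for prKO against srKO at 2 weeks. It gave 5 to 9 for srKO and 18 to 27 for prKO against srKO at 2 months, and 4 to 13 for the srKO change. Over all genes the ranges in the same order were 1298 to 3119, 33 to 362, 5 to 23 and 1415 to 1858 at 2 weeks. At 2 months they were 3514 to 4786 and 2683 to 5253, and for the srKO change 2447 to 3527. The member counts for prKO and lrKO at 2 months, WT between ages and the prKO and lrKO changes stayed within 1.5 times their value under every alternative run, as did the median SD in WT at 2 weeks.

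Replicate numbers did not pair the arrays: same-numbered arrays of different genotypes deviated together (correlation over 0.1) in 7 of 24 pairs at 2 weeks and 1 of 21 at 2 months. With the number as a replicate block the counts were 0 for prKO, 1 for srKO and 2 for lrKO at 2 weeks, 21, 5 and 0 at 2 months, 5 and 18 for prKO against srKO at 2 weeks and 2 months, 37 for WT between ages, and 5, 3 and 0 for the changes in prKO, srKO and lrKO. Over all genes the block gave 598, 595 and 583 calls at 2 weeks, and 6771, 3626 and 54 at 2 months. In the same order as above, the others were 2366 and 3348, 15564, and 4173, 2622 and 49. No knockout array carries a number above 4, so WT arrays with higher numbers had no partner in the comparisons with WT. At 2 weeks the block's median differences over the members equalled those with WT replicates 1 to 4 alone. They were -0.21 in prKO, -0.06 in srKO and 0.24 in lrKO. At 2 months this held for srKO (0.06) and lrKO (-0.11), with -0.39 against -0.40 in prKO. The block counts against WT thus rest on fewer WT arrays and cannot decide on pairing.

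Signs turned for 5 single-gene values: Smc1b in srKO at 2 weeks (-0.0136 with WT replicates 5 to 8), Smc1b in WT between ages (-0.0373 with the same arrays), Stra8 in srKO at 2 months (0.0380 without srKO replicate 3, -0.53 without srKO replicate 1) and the prKO change of Spo11 (-0.0474 with the replicate block, -0.0438 with WT replicates 1 to 4). The number of arrays limits what can be seen at 2 weeks, where the SD of Piwil1 alone was 1.70.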
